A study of Mus musculus with 7 samples.

Results

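The 7 genes described here carry out MHC class II antigen presentation in the mouse, and they were taken by symbol from the list of 33696 genes counted in every library: H2-Aa (ENSMUSG00000036594), H2-Ab1 (ENSMUSG00000073421), H2-Eb1 (ENSMUSG00000060586), Cd74 (ENSMUSG00000024610), H2-DMa (ENSMUSG00000037649), H2-DMb1 (ENSMUSG00000079547) and Ciita (ENSMUSG00000022504). Their unique molecular identifiers (UMIs, each standing for a captured RNA molecule) were counted by single-cell RNA-Seq of 7 tumors grown from JW23.3, a murine malignant peripheral nerve sheath tumor (MPNST) line. Each tumor arose from cultured cells placed under the flank skin of a female C57/B6 wildtype mouse aged 5 to 6 weeks, and mice were randomized to the groups. The 4 irradiated tumors received 5 daily fractions of 2 Gy behind lead shielding, the 3 control tumors received none, and all were taken at day 21 and dissociated with papain. Every tumor came from the same line in the same host strain and sex, so the groups stand for that allograft alone. Whether the members differed between cell classes, and between irradiated and control tumors within a class, is what the design lets these data address.

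MHC class II molecules are dimers of an alpha and a beta chain, here I-A (H2-Aa with H2-Ab1) and the beta chain of I-E (H2-Eb1), which C57BL/6 mice make without a working I-E alpha chain. Cd74 encodes the invariant chain, which occupies the peptide groove during assembly. The H2-DM dimer (H2-DMa with H2-DMb1) later exchanges the remaining invariant chain fragment for antigen peptides, which the dimers display to CD4+ T cells. Ciita encodes the transactivator that switches these genes on together, from its own promoters in dendritic cells, B cells and cells exposed to interferon gamma, while most other cells, mouse T cells included, are held to lack it.

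After cell filters, 34301 of 39537 cells and 2342 to 7451 cells per tumor were retained, with 6059 to 17931 median UMIs per cell in the deposited cells of a library. Clusters made without any H2 gene, Cd74, Ciita or pathway gene were named from marker lists as dendritic-like (403 cells), macrophage-like (12594), T/NK-like (1555), endothelial-like (624) and MPNST-like (16969). For each class, the markers of its own list found in at least 25% of its cells were counted. They came to 15 of 15 macrophage, 6 of 13 dendritic, 10 of 15 T/NK, 12 of 12 endothelial and 12 of 19 MPNST markers. By the same count, dendritic-like cells also held 7 of 15 macrophage markers, and macrophage-like cells held 1 of 13 dendritic markers. Taking cell number, UMIs and genes per cell and mitochondrial share together, the split of the libraries with the least variation inside its parts gave set 1 (irradiated 2, 3 and 4 with control 1) and set 2 (irradiated 1 with controls 2 and 3), although the sets overlapped in genes per cell and in mitochondrial share. The part of the variation left inside the sets was 0.489, and the split ranked second, with control 3 moved to set 1, left 0.544. Neither the labels nor the methods name a source for the split. Scrublet called 714 retained cells (2.08%) doublets, which were kept, and 190 barcodes occurred in more than 1 library, 3 to 19 for any pair.

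The promoters of 3 members are shown because the class II genes are known for a shared upstream module, read by the RFX complex at the X box, by CREB-family factors at the neighbouring CRE-like site and by NF-Y at the Y box, on which the Ciita protein assembles. A RefSeq promoter entry was at hand for 4 of 7 members (H2-Aa, H2-Eb1, H2-DMa and H2-DMb1), all on chromosome 17, and none for Cd74, H2-Ab1 and Ciita. The stretches run 5′ to 3′ on the strand of the gene from 110 to 21 bases before its start, in GRCm38.p6, and capitals mark matches on either strand to an X box core (AGNNACTGA), a CRE (TGACGTCA) or a Y box (ATTGG, or CCAAT where it lies on the opposite strand).
H2-Aa, chr17:34287844-34287933, minus strand: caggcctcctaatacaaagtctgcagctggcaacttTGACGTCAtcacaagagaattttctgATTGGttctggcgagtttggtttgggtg
H2-Eb1, chr17:34305757-34305846, plus strand: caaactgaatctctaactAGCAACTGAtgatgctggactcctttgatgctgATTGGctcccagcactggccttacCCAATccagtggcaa
H2-DMb1, chr17:34153081-34153170, plus strand: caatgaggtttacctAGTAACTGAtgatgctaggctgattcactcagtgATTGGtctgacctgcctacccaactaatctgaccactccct

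H2-Eb1 and H2-DMb1 held the X box core, 92 and 95 bases before the start, with a Y box match 59 and 61 bases before it. H2-Aa held the CRE at 74 bases and a Y box match at 48 bases. Across 32851 promoter windows of the same length, 18.0% held a Y box match, 1.80% the X box core and 0.931% the CRE, while 0.265% held the X box core with a Y box and 0.195% the CRE with a Y box. Neither of the 2 H2-DMa windows held any of these letters. The matches describe the sequence only, and binding was not measured in these tumors.

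All 7 members were highest in dendritic-like cells in each of the 7 tumors, and second in macrophage-like cells except for Ciita in irradiated 4, where 4 UMIs in endothelial-like cells gave 8.15 CPM against 7.93 CPM. Levels were taken as CPM, the UMIs of a gene per 1000000 UMIs of the class in a tumor, so a level rises with more expressing cells as well as with more RNA per cell. Of the chains that form the dimers, H2-Aa averaged 6745 CPM ± 349 (SD, n = 7) in dendritic-like, 1040 ± 675 in macrophage-like and 36.1 ± 37.4 in cells of the T/NK-like class. H2-Ab1 averaged 4354 CPM ± 1081, 556 ± 294 and 20.7 ± 15.5 in those classes, and H2-Eb1 averaged 6043 CPM ± 355, 903 ± 612 and 29.4 ± 31.9. Relative to its mean, each of the 3 chains varied less between tumors in dendritic-like than in macrophage-like cells. In dendritic-like cells the 15 macrophage markers summed to 603 to 2684 CPM, beside 1503 to 2501 CPM for the 13 dendritic markers. In macrophage-like cells these sums were 20930 to 27320 CPM and 86.5 to 110 CPM.

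The invariant chain gene Cd74 averaged 16250 CPM ± 2571 (SD, n = 7) in dendritic-like, 2909 ± 1547 in macrophage-like and 179 ± 91.2 in T/NK-like cells. Among genes for peptide exchange, H2-DMa averaged 461 CPM ± 76.1 and 146 ± 30.4, and H2-DMb1 averaged 501 CPM ± 124 and 130 ± 41.9, in dendritic-like and macrophage-like cells. H2-DMb1 lies beside a near-identical copy, H2-DMb2, so its reads may have been divided between them. Ciita averaged 155 CPM ± 24.99 in dendritic-like cells and 7.60 ± 3.86 in macrophage-like cells. The gap between these classes was widest for Ciita, at 4.31 ± 0.767 (SD, n = 7) on the log2(CPM + 1) scale, and narrowest for H2-DMa, at 1.67 ± 0.387, with 2.64 to 3.09 for Cd74 and the 3 chain genes. Each member was higher in dendritic-like cells in 7 of 7 tumors and the class ranges did not overlap (two-sided exact sign-flip permutation test, p = 0.0156, unadjusted, the smallest that 7 tumors allow).

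**Figure D1:**
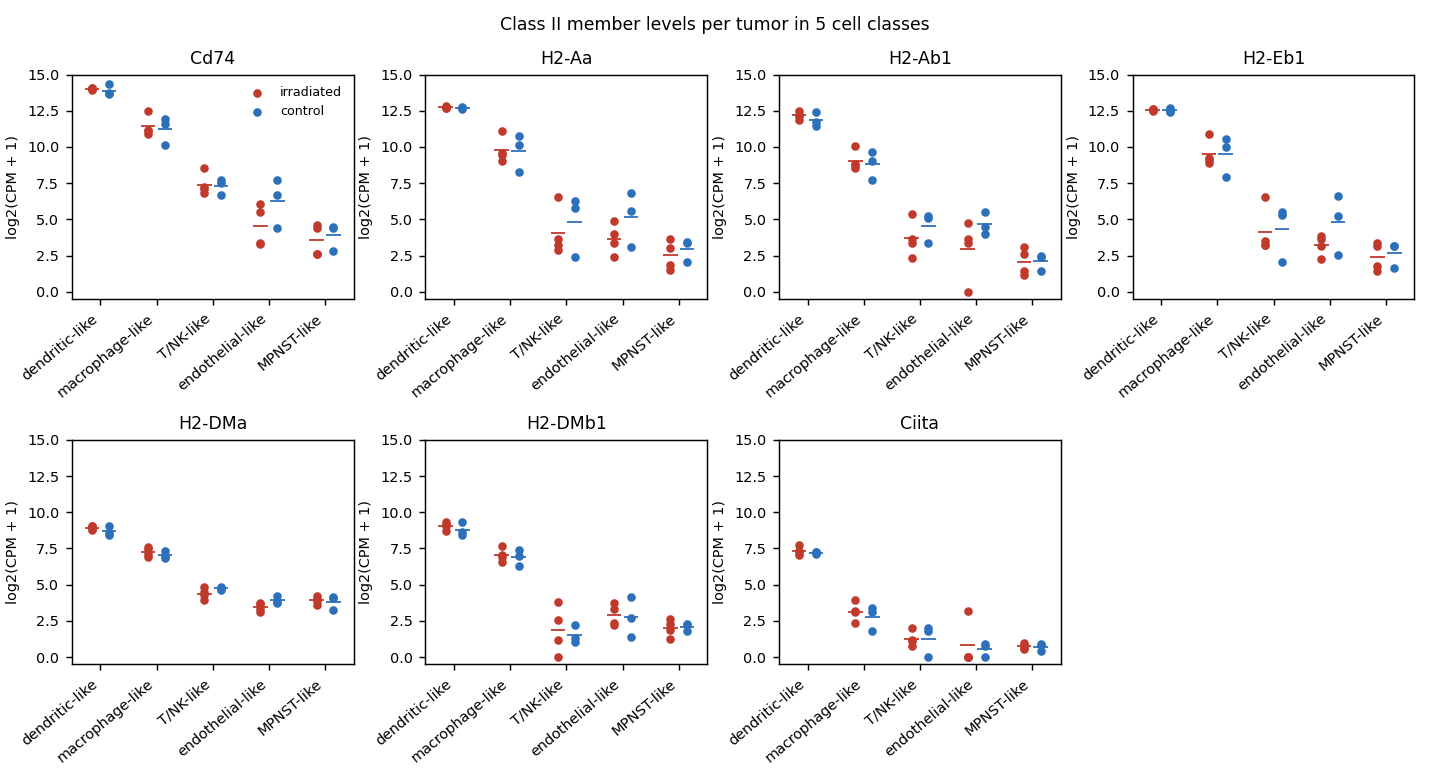
Level of each class II member in 5 cell classes, as log2(CPM + 1) on the y axis. Each point is 1 tumor (red, 4 irradiated; blue, 3 control) and each bar the group mean; the order of dendritic-like over macrophage-like cells held for all 7 members in every tumor, and the points of both groups lie among each other in every panel.

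Macrophage-like cells in turn exceeded the class with the next highest mean in 7 of 7 tumors for every member (same exact test, p = 0.0156 each), with non-overlapping ranges except for Ciita. Below them the order was less settled, as the plot of levels by class shows. Cd74 stood higher in T/NK-like than in endothelial-like cells in 6 of 7 tumors (2.09 ± 1.49 log2, exact p = 0.0312). H2-Aa, H2-Ab1 and H2-Eb1 differed between these classes by 0.09, 0.38 and 0.29 log2, less than their SDs of 1.32, 1.66 and 1.31 (exact p = 0.891, 0.594 and 0.703). H2-DMa was higher in T/NK-like than in MPNST-like cells in 7 of 7 tumors, by 0.67 ± 0.368 log2 (exact p = 0.0156). Of 28 pairs of neighbours in the order, 18 had an unadjusted p under 0.05.

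Most of the class II RNA of a tumor was in macrophage-like cells. Of the UMIs of the 6 members other than Ciita in a tumor, macrophage-like cells held 72.8% ± 9.70 (SD, n = 7) and made up 38.3% of cells. Dendritic-like cells held 20.01% ± 10.1 with 1.31% of cells. MPNST-like cells held 3.07% ± 1.42 with 47.7% of cells, T/NK-like cells held 0.236% ± 0.0652 and endothelial-like cells 0.139% ± 0.146. In irradiated and control tumors the macrophage-like share was 73.3% ± 4.32 (SD, n = 4) and 72.1% ± 15.9 (SD, n = 3), and the dendritic-like share 21.1% ± 6.42 and 18.6% ± 15.5, each difference within the spread between tumors.

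A Cd74 UMI was found in 98.8% ± 1.75 (SD, n = 7) of dendritic-like and 66.0% ± 8.36 of macrophage-like cells, and in 24.6% ± 5.64 of T/NK-like cells. In MPNST-like cells the share was 14.8% ± 3.78 at a median of 22828 UMIs per cell, against 3035 UMIs in T/NK-like cells. With every cell thinned to 3000 UMIs, the shares were 99.0% (dendritic-like), 53.3% (macrophage-like), 22.1% (T/NK-like), 7.27% (endothelial-like) and 2.44% (MPNST-like). The Cd74 share of MPNST-like and endothelial-like cells thus lay below that of T/NK-like cells at equal depth. T/NK-like cells without a UMI of C1qa, C1qb, C1qc, Csf1r or Adgre1 still held Cd74 at a median of 116 CPM. Their share is therefore no floor for the other classes. Whether the shares in these 3 classes stand for expression was not tested, and they are not read as such here. For Ciita the thinned shares were 32.7% in dendritic-like and 2.12% in macrophage-like cells, against 0.567%, 0.461% and 0.220% in the T/NK-like, endothelial-like and MPNST-like classes. Thinning left out 65 of 403 dendritic-like, 2694 of 12594 macrophage-like, 769 of 1555 T/NK-like, 158 of 624 endothelial-like and 1038 of 16969 MPNST-like cells.

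Macrophages of different tumors differed several-fold in class II level, and the difference did not follow the treatment groups. Cd74 measured 5773, 1908, 2272 and 2235 CPM in irradiated tumors 1 to 4 and 1143, 3045 and 3985 CPM in control tumors 1 to 3. H2-Aa measured 2162, 524, 752 and 680 CPM in the irradiated and 308, 1138 and 1714 CPM in the control tumors. H2-Eb1, the I-E beta chain, measured 1917, 476, 597 and 553 CPM against 242, 1023 and 1511 CPM. Irradiated 1 was highest and control 1 lowest for all of these, controls 3 and 2 came next after irradiated 1, and the groups overlapped. H2-Ab1 ran from 214 CPM in control 1 to 1088 CPM in irradiated 1. Ciita followed the same ends, from 2.40 CPM in control 1 to 14.4 CPM in irradiated 1, while H2-DMa (112 to 190 CPM) and H2-DMb1 (78.9 to 202 CPM) spread less. The ratio of the highest to the lowest tumor was 7.93 for H2-Eb1, 7.01 for H2-Aa, 5.98 for Ciita, 5.09 for H2-Ab1, 5.05 for Cd74, 2.56 for H2-DMb1 and 1.70 for H2-DMa.

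**Figure D2:**
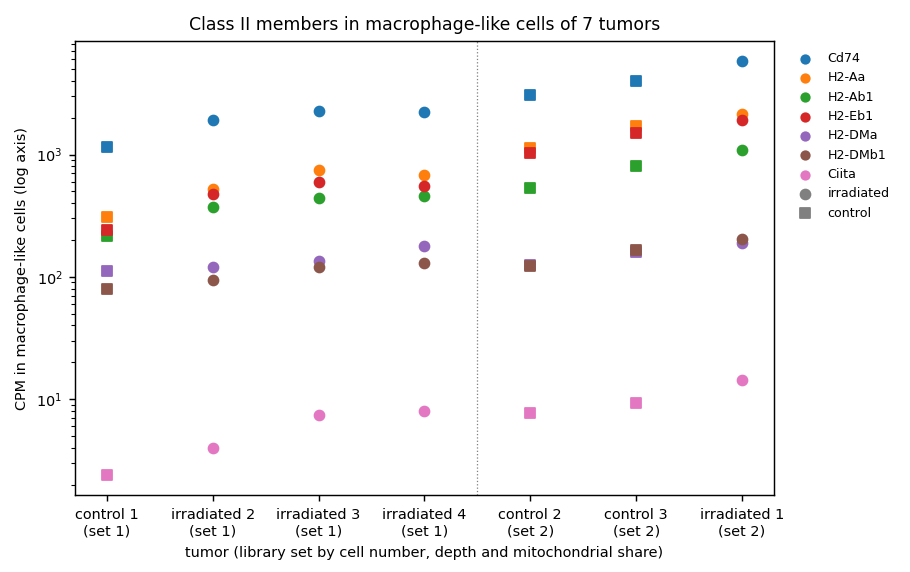
Levels of the 7 members in macrophage-like cells of each tumor, in CPM on a log y axis (circles, irradiated; squares, control), with set 1 libraries to the left of the dotted line and set 2 libraries to the right. Within each set the irradiated tumors lie above the control tumors for every member, while all set 2 tumors lie above all set 1 tumors for Cd74, H2-Aa, H2-Ab1 and H2-Eb1.

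Pooled over both sets, no member was called by edgeR's quasi-likelihood test on summed counts (Benjamini-Hochberg over 13014 genes, of which 0% were called), and no member's groups failed to overlap (5.45% of genes did so). The log2 differences, irradiated minus control, were 0.14 ± 0.503 (SE, adjusted p = 0.957) for Cd74, -0.06 ± 0.633 (adjusted p = 0.990) for H2-Aa, 0.17 ± 0.5 (adjusted p = 0.944) for H2-Ab1 and -0.09 ± 0.664 (adjusted p = 0.981) for H2-Eb1. They were 0.23 ± 0.195 (adjusted p = 0.816) for H2-DMa, 0.13 ± 0.310 (adjusted p = 0.931) for H2-DMb1 and 0.36 ± 0.514 (adjusted p = 0.870) for Ciita. The median over the 7 members was 0.14, against -0.01 over all genes tested, and without irradiated 1 it was -0.33, without control 1 it was -0.20 and without control 3 it was 0.49.

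The plot of macrophage-like levels by tumor sets the library sets side by side. Every library of set 2 exceeded every library of set 1 for 4 of 7 members (Cd74, H2-Aa, H2-Ab1 and H2-Eb1), against 8.92% of all genes. Within both sets, each irradiated tumor exceeded each control tumor for 7 of 7 members, against 8.58% of all genes, with a median difference of 0.97 in set 1 (3 irradiated, 1 control) and 0.63 in set 2 (1 irradiated, 2 controls). The members followed a shared profile over these tumors, so counts of members here are not counts of separate observations. With the set as a term in edgeR, the 7 differences ran from 0.40 (H2-DMa) to 1.06 (Ciita), and H2-Aa, H2-Eb1 and Cd74 came to 0.85 ± 0.215, 0.89 ± 0.199 and 0.81 ± 0.141 (SE). All 7 had an unadjusted p under 0.05 (0.000355 to 0.0413, against 3.55% of all genes), and none passed the adjustment over all genes (adjusted p = 0.999 for each). Each set holds only 1 tumor of 1 of the groups, so the within-set direction rests on control 1 and on irradiated 1. It also rests on where control 3 is placed: within the sets of the split ranked second, the irradiated tumors exceeded the controls in both for 0 of 7 members, against 7.77% of all genes, with medians of -0.0014 (3 irradiated, 2 controls) and 0.91 (1 of each). What the sets stand for was not tested.

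The difference between sets also appeared inside macrophage-like clusters, as the plot by cluster shows. The class comprised 7 clusters, and each is called by its leading genes. Summed over the 6 members other than Ciita, the level was 8884 CPM in the cluster led by Hpgd and P2ry12, 8408 CPM in that led by Ccl8, Ccl4 and Il1b, 8359 CPM in that led by Ccl8 and Cd14 and 4964 CPM in that led by the interferon-inducible genes Ifit1bl1, Cmpk2 and Cxcl11. It was 4390 CPM in the Ccl6 and Arg1 cluster, 3025 CPM in the cluster with Mki67 among its leading genes and 1256 CPM in the cluster led by Acp5 and Ctsk, genes of bone-resorbing osteoclasts. Control 1 was lowest in 5 of 7 clusters, irradiated 1 highest in 5 of 7, and every set 2 tumor exceeded every set 1 tumor in 4 of 7. In the Ccl8 and Cd14 cluster the range was 1179 CPM (control 1) to 12250 CPM (irradiated 1). That cluster made up 45.3% to 59.1% of macrophage-like cells in set 2 and 3.02% to 16.8% in set 1, where the Ccl6 and Arg1 cluster made up 50.7% to 56.9%.

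**Figure D3:**
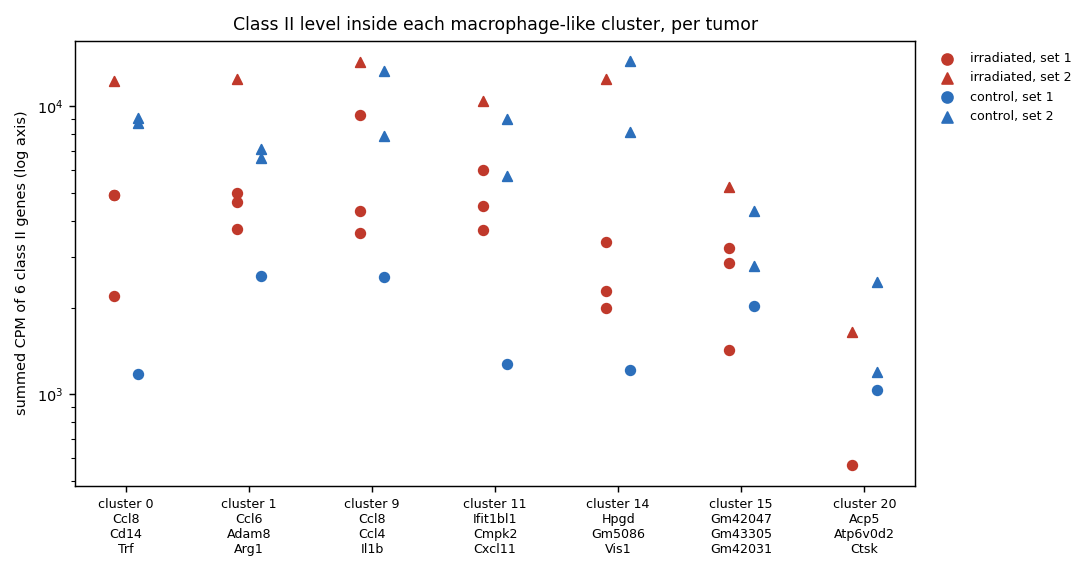
Summed level of Cd74, H2-Aa, H2-Ab1, H2-Eb1, H2-DMa and H2-DMb1 (CPM, log y axis) in each macrophage-like cluster and tumor with at least 20 cells (circles, set 1; triangles, set 2; red, irradiated; blue, control). Triangles lie above circles throughout 4 of 7 clusters, among them the largest, led by Ccl8 and Cd14.

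Within each tumor the class II RNA of macrophage-like cells sat in a minority of cells. Cells with at least 100 UMIs of the 6 members per 10000 of their own made up 40.9% (95% Wilson interval 38.7 to 43.1), 9.99% (8.28 to 12), 14.6% (12.7 to 16.8) and 12.7% (11.2 to 14.3) of macrophage-like cells in irradiated tumors 1 to 4. In control tumors 1 to 3 they made up 5.81% (4.70 to 7.16), 24.8% (23.3 to 26.4) and 32.1% (30.3 to 33.9). The order of the tumors was thus that of the levels, with irradiated 1 and controls 3 and 2 at the top and control 1 at the bottom. These cells held 66.0% to 89.8% of the class II UMIs of the class, and the plot of single cells shows them as the upper part of a broad spread. Ciita, which was not used to pick them, measured 30.9 to 44.0 CPM in them and 0.576 to 2.67 CPM in the other macrophage-like cells, higher in 7 of 7 tumors. The 13 dendritic markers summed to 97.3 to 140 CPM in them and 83.3 to 99.4 CPM in the rest, higher in 7 of 7 tumors, against 1503 to 2501 CPM in dendritic-like cells. Xcr1, Clec9a, Cd209a, Ccr7, Ccl22, Snx22 and Cacnb3 were each under 1 CPM in the class. The 15 macrophage markers summed to 16730 to 26140 CPM in them and 20660 to 28000 CPM in the rest, higher in 1 of 7 tumors. The 6 B-cell markers summed to 69.7 to 133 CPM in them and 50.4 to 293 CPM in the rest, higher in 6 of 7 tumors (irradiated 1 was the exception), and in the class as a whole to 52.9 to 233 CPM in irradiated (the highest in irradiated 1) and 58.4 to 84.6 CPM in control tumors, with Cd79a, Ms4a1 and Pax5 under 1 CPM.

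**Figure D4:**
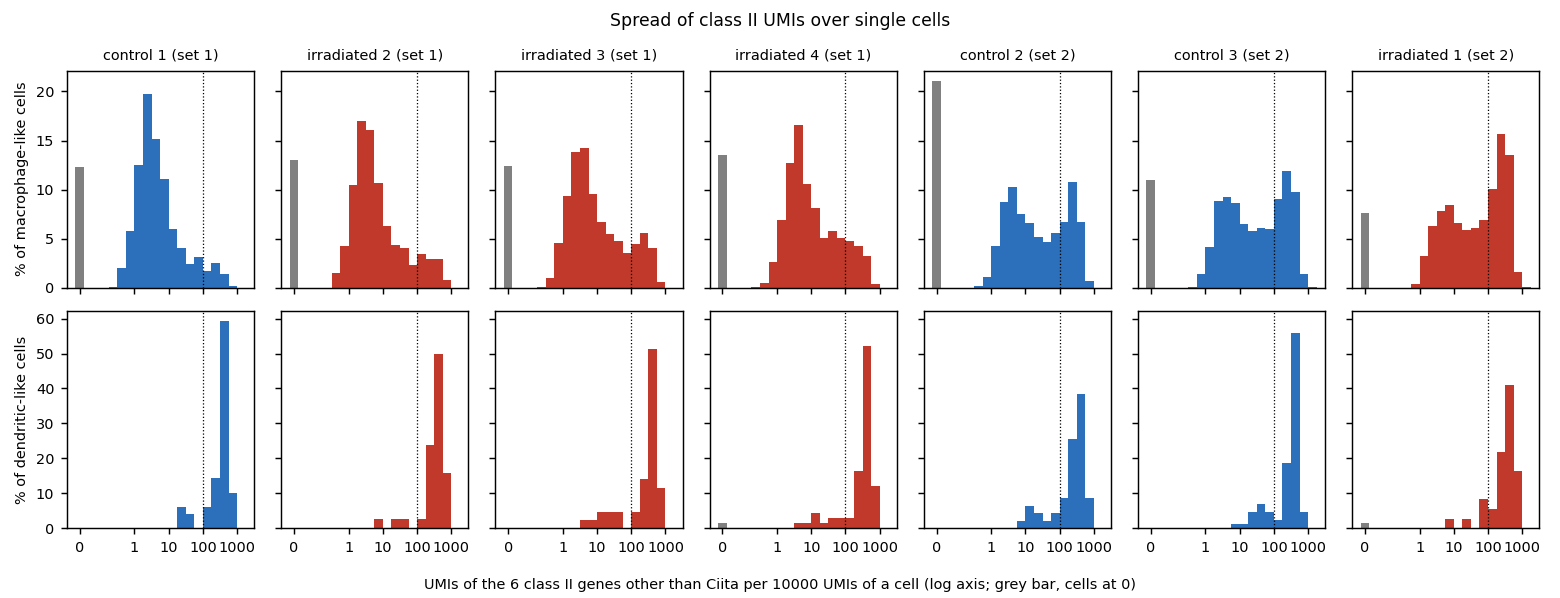
Histograms over single cells of the UMIs of 6 class II members per 10000 UMIs of the cell (log x axis; grey bar, cells with none), as percent of macrophage-like (top) and dendritic-like (bottom) cells of each tumor; the dotted line marks 100. Macrophage-like cells spread over a low and a high range, with 5.81% (control 1) to 40.9% (irradiated 1) at or above the line, while 80.9% to 92.1% of dendritic-like cells lay there.

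Members were found together in the same macrophage-like cells. With cells thinned to 3000 UMIs, Cd74 was found in a median of 94.6% of cells with an H2-Aa UMI and in 33.8% of cells without, H2-Ab1 in 78.0% and 9.95%, and H2-Eb1 in 77.4% and 5.08%. H2-DMb1 was found in 49.1% and 14.1%, H2-DMa in 46.6% and 25.1%, and Ciita in 5.91% and 0.273%. Each of these 6 shares was higher in the H2-Aa cells in 7 of 7 tumors, and the contrast was least for H2-DMa.

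Cells with a UMI of certain state genes differed in their class II level. The 6 members together were higher in macrophage-like cells with a UMI of Cxcl9, a chemokine gene induced by interferon gamma, by 1.00 ± 0.235 log2 (SD, n = 7), in 7 of 7 tumors. They were higher in cells with Ly6c2, a monocyte surface gene, by 0.80 ± 0.408, in 7 of 7 tumors. In cells with Arg1, the arginase of alternatively activated macrophages, they were lower in 7 of 7 tumors (-1.28 ± 0.510), and with the mannose receptor gene Mrc1 they were lower in 6 of 7 (-0.34 ± 0.418). Ciita was higher with Cxcl9 and with Ly6c2 and lower with Arg1 and with Mrc1 in 7 of 7 tumors each. Cells with a UMI of a state gene also differed in depth, with medians of 11420 UMIs with Mrc1 against 5154 without, 11950 against 7654 for Arg1, 11650 against 9006 for Cxcl9 and 8078 against 10590 for Ly6c2.

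In dendritic-like cells each member differed less between tumors than in macrophage-like cells, with ratios of the highest to the lowest tumor from 1.15 (H2-Aa) and 1.16 (H2-Eb1) to 1.94 (H2-DMb1) and 2.02 (H2-Ab1). H2-Aa measured 7127, 6676, 6964 and 6737 CPM in irradiated tumors 1 to 4 and 7091, 6450 and 6173 CPM in control tumors 1 to 3. Cd74 measured 15830, 17490, 16320 and 17450 CPM against 20390, 13350 and 12940 CPM, and Ciita 133, 150, 157 and 208 CPM against 149, 152 and 135 CPM. The groups overlapped for all 3 genes, and control 1, the lowest tumor for Cd74 in macrophage-like cells, was here the highest. No member was called (edgeR, 0% of 6961 genes called) and none had groups that did not overlap (4.76% of genes). The 7 differences ran from 0.02 to 0.22 log2 (SE 0.115 to 0.219, adjusted p = 0.999 each), all above 0 with a median of 0.14 against 0.01 over all genes tested, and with the set as a term the median was 0.01. Without control 1 the median was 0.33 and 4 of 7 members had an unadjusted p under 0.05, against 7.01% of all genes, with no member and 5 other genes called. With doublets removed the median was -0.02 and 3 of 7 members lay above 0.

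Among dendritic-like cells, those with only Cd209a or Clec10a, genes of type 2 dendritic cells, had the highest summed level of the 6 members (44090 CPM, 108 cells). Those with only Xcr1 or Clec9a, of type 1 dendritic cells, had 33740 CPM (41 cells), and those with only Ccr7 or Fscn1, of mature migratory dendritic cells, had 19560 CPM (102 cells). That order held in 4 of 4 tumors with at least 5 cells of each kind. Per tumor the level ran from 37930 to 48310 CPM, 31930 to 33920 CPM and 11720 to 25660 CPM in the 3 kinds, so their ranges did not overlap. Ciita did not follow the same order, with per-tumor ranges of 120 to 234, 87.1 to 207 and 30.3 to 251 CPM that overlapped. The order covers only part of the class. A further 51 cells with genes of more than 1 kind held 35930 CPM of the 6 members, and 101 cells with none of the 6 subset genes held 40500 CPM. Ciita was 238 CPM in the latter, beside 102.3 to 164.5 CPM in the 3 kinds.

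In T/NK-like cells Cd74 measured 366, 110, 146 and 136 CPM in irradiated tumors 1 to 4 and 102, 212 and 181 CPM in control tumors 1 to 3. H2-Aa measured 93.7, 6.49, 8.23 and 11.4 CPM against 4.23, 74.3 and 54.4 CPM, again highest in irradiated 1 and controls 2 and 3. Of the members, 5 passed the filter on low counts and none was called (edgeR, 0% of 8181 genes), with differences of -0.73 (H2-Ab1) to 0.16 (Cd74) and adjusted p-values of 0.968 to 0.999, and none had groups that did not overlap (6.32% of genes). The median of these 5 was -0.35, and with the set as a term 0.60, while without control 2 it was 0.05. The macrophage markers, all 15 of which had UMIs in this class, summed to 138 to 2149 CPM in irradiated and 591 to 1691 CPM in control tumors. In all, 22 of 1555 cells held 46.0% of the class II UMIs, and 54.5% of the 22 had been called doublets against 2.70% of the class. Their median depth was 8896 UMIs against 3035 in the class. Without cells holding a UMI of C1qa, C1qb, C1qc, Csf1r or Adgre1, the median Cd74 level was 116 CPM against 146 CPM, while the median over tumors of the share of its level that was left was 102.2%. Cd74 was 346 CPM in the T/NK-like cluster led by Ctla4, Tnfrsf4 and Icos and 71.9 CPM in the cluster led by Nkg7, beside 861 and 532 CPM of those 5 macrophage transcripts.

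In endothelial-like cells the 5 tested members had lower fitted levels in irradiated tumors, and none passed the test. Cd74 measured 43.8, 8.77, 9.32 and 65.2 CPM in irradiated tumors 1 to 4 and 19.7, 100.2 and 209 CPM in control tumors 1 to 3. H2-Eb1 measured 11.5, 13.2, 3.73 and 8.15 CPM against 4.93, 37.0 and 98.8 CPM. Controls 2 and 3 stood above the other tumors and control 1 among the irradiated ones, so the groups overlapped. The differences were -1.69 ± 0.924 (SE) for Cd74, -1.86 ± 0.911 for H2-Aa, -1.06 ± 0.589 for H2-Ab1, -2.41 ± 0.989 for H2-Eb1 and -0.49 ± 0.382 for H2-DMa, each with an adjusted p of 1.00 (edgeR, 0% of 9400 genes called, 5.38% with groups that did not overlap). H2-Eb1 had an unadjusted p of 0.0451 by edgeR. The median of the 5 was -1.69, and without control 3 it was -0.84, without control 1 it was -2.30 and with the set as a term it was -0.81. H2-DMb1 and Ciita did not pass the filter, and Ciita had 0 UMIs in 4 tumors, where 3 UMIs would have given 2.47 to 13.2 CPM.

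A few endothelial-like cells carried most of this signal. The class held 25 to 231 cells per tumor, and 14 of 624 cells with at least 10 class II UMIs held 73.1% of its class II UMIs. All 14 also held a UMI of the 5 macrophage transcripts, against 48.1% of the class, and in control 3, 6 of 117 cells held 91.3% of the class II UMIs. The 14 cells were deeper, with a median of 15999.5 UMIs against 6207 in the class, and 28.6% of them had been called doublets against 2.72%. The part of depth in their macrophage UMIs was not tested. Without the cells with a macrophage UMI, 9.18% of the Cd74 UMIs were left against 38.8% of all UMIs, and no member passed the filter on low counts. The median Cd74 level was 16.9 CPM against 43.8 CPM, and the median over tumors of the share of its level that was left was 26.0%. The 15 macrophage markers summed to 97.8 to 572 CPM in irradiated and 378 to 937 CPM in control tumors.

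Tumor cells held Cd74 and the chain genes near the level that macrophage transcripts reached there, and the H2-DM genes above it. Cd74 measured 23.9, 20.1, 5.09 and 5.17 CPM in irradiated tumors 1 to 4 and 5.95, 21.0 and 20.6 CPM in control tumors 1 to 3. As a percentage of the macrophage-like level of the same tumor, this was 0.224% to 1.05%, beside 0.243% to 0.777% for the median of the 5 macrophage transcripts and Lyz2. H2-DMa measured 13.3, 11.3, 15.3 and 17.4 CPM against 16.3, 15.6 and 8.41 CPM, which was 5.30% to 14.6% of the macrophage-like level. Cd74 exceeded the highest of these transcripts, Lyz2 included, in 1 of 7 tumors, and H2-Aa, H2-Ab1 and H2-Eb1 did so in 3 of 7. H2-DMa exceeded it in 7 of 7, as did H2-DMb1 (1.10% to 4.02%) and Ciita (3.95% to 33.1%, at levels of only 0.368 to 0.918 CPM). Without cells holding a macrophage UMI, which carried all but 33.8% of the UMIs of the class, 15.1% of the Cd74 UMIs were left. The median Cd74 level was 4.93 CPM against 20.1 CPM, while the median over tumors of the share of its level that was left was 43.0%. For H2-DMa the median was 15.8 CPM against 15.3 CPM and for Ciita 0.908 against 0.789 CPM, as the plot of the low classes shows. Of the cells, 121 of 16969 (0.713%) held 35.5% of the class II UMIs, and 97.5% of these had a macrophage UMI against 56.6% of the class. These 121 cells were deeper, with a median of 31571 UMIs against 22828 in the class, and 28.9% had been called doublets against 0.642%.

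**Figure D5:**
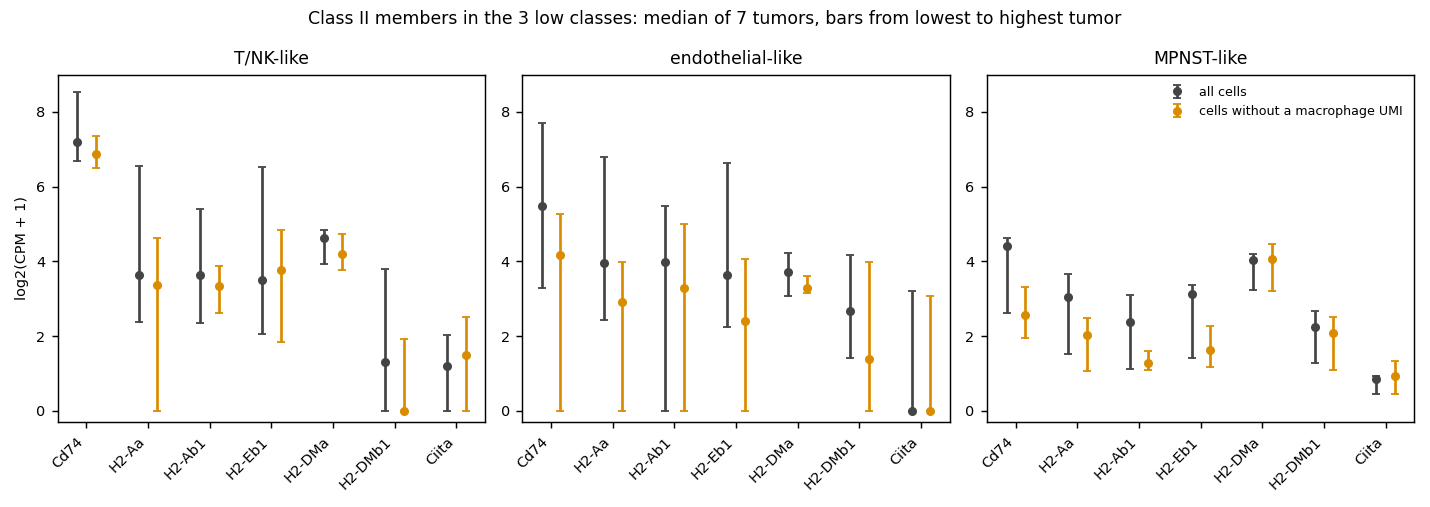
Median level over 7 tumors of each member in T/NK-like, endothelial-like and MPNST-like cells, as log2(CPM + 1), with bars from the lowest to the highest tumor, for all cells (grey) and for cells without a UMI of 5 macrophage transcripts (orange). In MPNST-like cells the medians of Cd74, H2-Aa, H2-Ab1 and H2-Eb1 lie lower in orange, while those of H2-DMa, H2-DMb1 and Ciita lie close to the grey ones.

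No member was called in MPNST-like cells (edgeR, 0% of 17758 genes called) and none had groups that did not overlap (2.8% of genes). The differences ran from -0.42 (H2-Aa) to 0.07 (H2-Ab1) with SEs of 0.207 to 0.677 and adjusted p-values of 0.994 to 0.998, and their median was -0.07, or -0.48 without irradiated 2. With the set as a term the median was 0.28 with 6 of 7 members above 0, and with doublets removed it was -0.24 with 1 above 0. Without cells holding a macrophage UMI the median was -0.28 with 0 of 7 above 0. The 15 macrophage markers summed to 59.7 to 113 CPM in irradiated and 133 to 172 CPM in control tumors. Beyond that refit, their part in these differences was not tested.

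An MPNST-like cluster of 613 cells led by interferon-inducible genes (Ifit1, Gbp6, Gbp5, Iigp1) was compared with the other MPNST-like cells of the same tumor. There the 6 members summed to a median of 60.7 CPM (20.8 to 122) against 55.8 CPM (26.3 to 67.9), higher in 5 of 7 tumors. Nlrc5, the transactivator of class I genes, was at a median of 256 CPM against 50.0 CPM, higher in 7 of 7. Ciita was at 0.948 to 2.72 CPM against 0.360 to 0.882 CPM and H2-DMa at a median of 18.4 against 15.02 CPM, also higher in 7 of 7, although the Ciita levels in the cluster rest on 1 to 8 UMIs per tumor. The 5 macrophage transcripts were higher in that cluster in 2 of 7 tumors.

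Whether the radiation difference of a member differed between classes was tested with the tumor as a block, each class against macrophage-like cells. For dendritic-like, T/NK-like and MPNST-like cells no member was called (edgeR, 0%, 0% and 0% of all genes called). For endothelial-like cells no member was called either, against 0.00695% of all genes. There H2-Eb1 differed by -2.31 ± 0.492 (SE, unadjusted p = 0.000552, adjusted p = 0.794), and 5 of 7 members had an unadjusted p under 0.05, against 4.26% of all genes. For T/NK-like cells, where 4.06% of all genes had an unadjusted p under 0.05, H2-Ab1 (-1.02 ± 0.341) and H2-DMa (-0.61 ± 0.25) were below it, with adjusted p-values of 1.00 by edgeR.

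Of 31 other genes of the pathway, none was called in any class, with 24, 27, 22, 19 and 25 of them tested in dendritic-like, macrophage-like, T/NK-like, endothelial-like and MPNST-like cells and 3, 5, 1, 2 and 3 at an unadjusted edgeR p under 0.05. All 5 further chain and accessory genes were highest in dendritic-like cells. The H2-DM regulators H2-Oa and H2-Ob averaged 107 and 71.6 CPM there and at most 5.21 and 4.69 CPM in the other classes, H2-DMb2 averaged 251 CPM against 6.05 CPM in macrophage-like cells, and H2-Ea, the I-E alpha chain gene, 0.230 CPM. Of the proteases that cleave the invariant chain and antigens, 5 of 6 processing genes (Ctss, Ctsl, Ctsb, Ctsd and Lgmn) were instead highest in macrophage-like cells, Ctss at 2824 CPM against 1146 CPM and Lgmn at 2477 CPM against 271 CPM in dendritic-like cells. Ifng, the inducer of Ciita, averaged 116 CPM in T/NK-like cells and at most 0.222 CPM elsewhere. The X box and Y box factor genes had no single highest class. Rfx5 averaged 4.34 to 8.06 CPM and Rfxap 18.5 to 36.1 CPM across the 5 classes. Rfxap and the Y box factor gene Nfya were highest in dendritic-like cells, Nfya at 47.7 CPM against 34.3 CPM in macrophage-like cells. Rfx5 and Nfyb were highest in endothelial-like cells, and Rfxank and Nfyc in MPNST-like cells.

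Between groups, the pathway genes with the largest differences did not pass the test. In dendritic-like cells these were Nfya, a Y box factor gene, at -0.64 ± 0.295 (SE), Lgmn at 0.54 ± 0.245 and H2-Ob at 0.49 ± 0.309 (edgeR, adjusted p = 0.999 each). Lag3, a class II receptor gene, differed by -0.99 ± 0.365 in macrophage-like cells and by 0.97 ± 0.544 in T/NK-like cells, and the coreceptor gene Cd4 by -0.88 ± 0.640 in the former. Ctsl differed by -0.40 ± 0.348 in T/NK-like cells, and the thiol reductase gene Ifi30 and Irf8 by -1.33 ± 0.465 and 0.85 ± 0.504 in endothelial-like cells. In MPNST-like cells Marchf1, a ubiquitin ligase gene of class II turnover, averaged 1.36 CPM in irradiated and 7.53 CPM in control tumors (-2.58 ± 0.763, edgeR, adjusted p = 0.994). A single tumor reached 16.5 CPM there, so the means rest unevenly on the tumors, and the macrophage-like mean was 89.9 CPM. Cd83 differed by -0.96 ± 0.421 in MPNST-like cells.

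Measured by the Pearson correlation with the mean log2 CPM of the 6 members other than Ciita, and given as a description, the members followed a shared profile over the 7 macrophage-like sums, with correlations of 0.989 to 0.997 for Cd74, H2-Aa, H2-Ab1 and H2-Eb1, 0.981 for H2-DMb1 and 0.772 for H2-DMa, which are all part of the mean, and 0.953 for Ciita, which is not. Among 7861 other genes the closest were Ripor2 (0.972), Arhgap39 (0.964), Alms1 (0.964), Dmac1 (0.961) and Dguok (0.959), over 7 points that share the 2 library sets. Over the 35 sums of 5 classes and 7 tumors, the closest of 9537 genes were Pkib (0.977), Grk3 (0.974), Spint1 (0.969), Clec7a (0.963) and Il1b (0.963). Points of the same tumor share a library there, and the values mainly follow the order of the classes.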

How the data were processed

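Single-cell suspensions of 7 tumors were captured with 10x Genomics 3′ v3.1 chemistry, 1 library per tumor. The authors aligned reads to mm10 with Cell Ranger and deposited, for every library, a matrix of raw UMI counts (genes by called cells); the submitters' processing notes also name Seurat 4.4. The Cell Ranger version differs between the methods and the file headers, and the gene list was used as deposited.

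A cell was removed where its UMIs, genes, mitochondrial share or ribosomal share lay over 3 scaled median absolute deviations from the median of its library. Cells were clustered (scanpy 1.11.5, Leiden resolution 1, 30 principal components, 20 neighbors, 3000 variable genes) without H2 genes, members, pathway genes, mitochondrial, ribosomal and Y-linked genes, and clusters were named from marker lists (at least 3 markers in 25% of cells and 2-fold higher). Doublets were called with Scrublet and kept. Clusters without a name were left out of the 5 classes, among them some in which at least 3 markers of a list were counted. The members and the marker and pathway lists were chosen with earlier results of these data known. Every member is described. Other genes were named by rule, as the 3 pathway genes with the largest difference per class and the 5 with the profile most like the members, and the pathway genes given for their class levels and the genes of marker and state lists were named after their values were seen. A gene that this rule names and some other items are not reported here.

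Counts were summed per class and tumor where a tumor had at least 20 cells of the class, filtered with filterByExpr and tested with edgeR 4.0.16 (quasi-likelihood, TMM, Benjamini-Hochberg over all genes tested, threshold 0.05). The statistics were tested on simulated data. Levels are CPM of the class, with a pseudocount of 1 on the log2 scale, and classes were compared within tumors by a two-sided exact sign-flip permutation test. Depth was 53496570 to 153044123 UMIs per library. Wilson intervals (95%) and the floor of 3 counts cover counting error only. The labels call the tumors of a group biological replicates, and the tumor is the unit of every test between groups. Macrophage background was read from 5 transcripts (C1qa, C1qb, C1qc, Csf1r and Adgre1). Lyz2 was added to them where levels were given as a percentage of the macrophage-like level, and was not used to remove cells. Alternatives were DESeq2 1.42.0, no filter on low counts, the library set or the replicate number as a term, leaving out each tumor, per-cell marker gates, doublets removed, no cell filter, Leiden resolution 0.5 and removal of cells with a macrophage UMI. The per-cell gates tolerated up to 2 MPNST markers (4 for endothelial cells).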

Additional observations from a re-analysis of the deposited data

Results flagged for a closer look

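Among the 4 irradiated tumors, 8 of 35 pairs of member and class held a value that passed the 95% critical value of Dixon's test for 4 samples. The test divides the gap to the nearest of the others by the range, and chance gives about 1 in 20 for a single pair. Pairs share the same tumors and libraries, so the 35 are not independent. Of these 8, 7 lay in irradiated 1. In macrophage-like cells of irradiated 1, Cd74 stood at 5773 CPM (the other 3 at 1908 to 2272), H2-Aa at 2162 CPM (524 to 752), H2-Ab1 at 1088 CPM (370 to 457) and H2-Eb1 at 1917 CPM (476 to 597). In T/NK-like cells of the same tumor, Cd74 stood at 366.5 CPM (110 to 146), H2-Aa at 93.67 CPM (6.49 to 11.4) and H2-Eb1 at 91.33 CPM (8.23 to 10.4), and 4 of its 275 T/NK-like cells, all called doublets, held 72.5% of the class II UMIs. In endothelial-like cells, Ciita stood at 8.151 CPM in irradiated 4 and at 0 in the other irradiated tumors. That value rests on 4 UMIs in 35 cells, and in irradiated 2 as few as 3 UMIs would have given 13.2 CPM. Irradiated 1 is also the only irradiated library of set 2, and the part of the set in these values was not tested. Groups of 3 controls are too small for this test.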

How the results depend on the processing

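No member was called in any class under any alternative, and 241 alternative values of medians, shares and class orders kept their direction and side of the threshold or moved by less than the spread between tumors, against 14 that moved further. Differences of single members were counted in macrophage-like and endothelial-like cells only. There 151 alternative values kept their direction and 19, all in macrophage-like cells, reversed. Directions also changed in the classes not counted. With the set as a term, members above 0 went from 1 to 4 of 5 in T/NK-like and from 3 to 6 of 7 in MPNST-like cells. With doublets removed, they went from 7 to 3 of 7 in dendritic-like cells. The pooled macrophage-like direction did not hold: with the library set as a term H2-Aa came to 0.85 and H2-Eb1 to 0.89, against negative pooled values, and within set 1, a comparison added after seeing the data, the median was 0.97. Within the split ranked second, also added after seeing the data, the median was -0.0014 in the set with 3 irradiated tumors and 0.91 in the other. Leaving out each tumor in turn, the macrophage-like differences ran from -0.39 to 0.52 (Cd74), -0.74 to 0.49 (H2-Aa), -0.33 to 0.65 (H2-Ab1), -0.82 to 0.47 (H2-Eb1), -0.14 to 0.42 (H2-DMb1) and -0.045 to 0.74 (Ciita), lowest without irradiated 1 (Ciita without control 1) and highest without control 3. The cause was not tested.

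With per-cell marker gates the share of class II UMIs was 62.5% in macrophage-like, 0.0857% in T/NK-like and 0.339% in MPNST-like cells. For T/NK-like cells it was 0.168% with doublets removed and 0.103% without cells holding a macrophage UMI, and for MPNST-like cells 0.715% without the latter. Thinned to 3000 UMIs, the share of cells with a UMI was 32.7% for Ciita in dendritic-like cells, 53.3% for Cd74 and 2.12% for Ciita in macrophage-like cells, 7.27% for Cd74 in endothelial-like cells, and 2.44% for Cd74 and 0.220% for Ciita in MPNST-like cells, where fewer UMIs per cell lower the share by construction.

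Replicate numbers did not pair the tumors (correlations of deviations of -0.446 to 0.112 over 15 same-numbered pairs and -0.297 to 0.411 over 45 others). With the replicate block no member was called, and the medians were 0.09 (dendritic-like), 0.14 (macrophage-like), -0.56 (T/NK-like), -1.64 (endothelial-like) and -0.01 (MPNST-like), with irradiated 4 unpaired.

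Over all genes, 0 were called by edgeR in each class (243, 783, 390, 399 and 319 had an unadjusted p under 0.05 in dendritic-like, macrophage-like, T/NK-like, endothelial-like and MPNST-like cells). DESeq2 called 1 in dendritic-like and 5 in macrophage-like cells, and without the filter on low counts edgeR called 83 in dendritic-like, 55 in T/NK-like and 90 in endothelial-like cells. Leaving out doublets gave 4 in T/NK-like cells, and leaving out control 1 gave 5 in dendritic-like cells. The endothelial-like test with per-cell gates was not run, since too few libraries held 20 such cells, and without cells holding a macrophage UMI no member of that class passed the filter. Standard errors of 0.382 to 0.989 log2 in endothelial-like and 0.278 to 1.28 in T/NK-like cells limit what 4 and 3 tumors can show there.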

Other observations

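Outside the 5 classes, an unnamed cluster of 69 cells led by Igkc, Mzb1 and Siglech, genes of antibody-secreting and plasmacytoid cells, held 9058 CPM of the 6 members and 60.1 CPM of Ciita, and only 1 tumor had 20 or more of its cells. An unnamed cluster of 488 cells led by Folr2, Cx3cr1 and Mrc1, genes of tissue macrophages, held 1370 CPM of the 6 members. A further unnamed cluster of 150 cells, with 12 of 15 macrophage markers counted and a median of 1404 UMIs per cell, held 3170 CPM. An unnamed cluster of 655 cells led by Col1a1 and Sparc, with 8 of 19 MPNST markers counted and a median of 1100 UMIs, held 630 CPM.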
